A study of Mus musculus with 2 samples.

Results

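The 8 genes described here encode protein kinases and pseudokinases whose transcripts are known to be inducible by extracellular signals: the AGC kinase gene Sgk1, the polo-like kinase genes Plk2 and Plk3, the PIM kinase genes Pim1, Pim2 and Pim3, and the Tribbles pseudokinase genes Trib1 and Trib2. They were chosen by name, as the non-control spots whose gene name in the scanner files equals one of these symbols. They accounted for 11 of the 55681 distinct non-control probes and for 8 of the 35019 gene names on the array. All 8 genes had at least 1 probe well above background on both arrays, as did 21219 genes in all, and 10 of the 11 probes met that mark.

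RNA came from cells labelled GT1-7, a cloned mouse line of hypothalamic neuron character that is a standard source of the decapeptide GnRH (gonadotropin-releasing hormone), derived from a tumour in which the Gnrh1 promoter drove a viral T antigen. In the vehicle group (1 array) the cells were exposed to DMSO for 30 min, and in the GnRH group (1 array) to 50 nM GnRH, also for 30 min; the labels give no other agent or genetic change. One free-text label, shared by both samples, speaks of bradykinin and A549 cells, and the treatment labels were followed here. The markers go against the labelled cell type: the Gnrh1 transcript that defines GnRH neurons did not pass the background mark, whereas the pituitary gonadotrope genes Cga, Nr5a1, Pitx1, Foxl2 and Gnrhr were bright on both arrays, so the cells are named here by their label only. Each array was a 1-colour (Cy3) Agilent mouse array, and the values are spot intensities. Since a group is 1 array, differences have no replicate check and no test between cultures could be made; precision is limited by the number of arrays, and every value describes these 2.

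PIM kinases are active as soon as they are translated, and SGK1 is made on demand and then switched on by phosphorylation through mTORC2 and PDPK1. PLK2 and PLK3, once named SNK and FNK, were found as serum- and growth factor-inducible genes; in neurons PLK2 phosphorylates the spine protein SPAR and weakens overactive synapses. Tribbles proteins keep a kinase fold with little or no catalytic activity and act as scaffolds that bring the ubiquitin ligase COP1 to C/EBP transcription factors and that bind MEK1 and AKT.

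The promoters of 7 of the 8 genes were matched in a RefSeq table (build GRCm38.p6), with 13 start sites. The unmatched gene was Trib1, which had the largest difference of the 8. The 250 bases before 4 of these sites are shown: the only windows of Plk2, Plk3 and Pim3, the genes among those matched that stood highest in the GnRH array, and the Sgk1 window with a match to the glucocorticoid element, since that gene is known for induction by glucocorticoids. Sequences run 5′ to 3′ on the strand of the gene, with the matched letters in capitals.
Plk2, chr13:110394794-110395043, plus strand: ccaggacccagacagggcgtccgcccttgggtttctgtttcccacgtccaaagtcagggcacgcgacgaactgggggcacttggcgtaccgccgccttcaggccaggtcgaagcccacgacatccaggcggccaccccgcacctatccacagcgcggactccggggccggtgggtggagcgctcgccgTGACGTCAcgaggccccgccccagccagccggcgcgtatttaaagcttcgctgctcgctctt
Plk3, chr4:117133964-117134213, minus strand: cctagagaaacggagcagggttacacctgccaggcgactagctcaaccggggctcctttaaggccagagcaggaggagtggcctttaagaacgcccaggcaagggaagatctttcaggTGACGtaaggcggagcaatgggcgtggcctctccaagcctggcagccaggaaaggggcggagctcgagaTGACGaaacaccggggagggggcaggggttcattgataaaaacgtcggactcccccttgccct
Pim3, chr15:88861944-88862193, plus strand: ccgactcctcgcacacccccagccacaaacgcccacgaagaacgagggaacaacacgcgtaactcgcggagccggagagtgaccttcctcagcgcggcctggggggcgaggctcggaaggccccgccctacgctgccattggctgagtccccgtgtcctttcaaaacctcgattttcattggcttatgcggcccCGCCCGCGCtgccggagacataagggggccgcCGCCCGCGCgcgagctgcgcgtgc
Sgk1, chr10:21993640-21993889, plus strand: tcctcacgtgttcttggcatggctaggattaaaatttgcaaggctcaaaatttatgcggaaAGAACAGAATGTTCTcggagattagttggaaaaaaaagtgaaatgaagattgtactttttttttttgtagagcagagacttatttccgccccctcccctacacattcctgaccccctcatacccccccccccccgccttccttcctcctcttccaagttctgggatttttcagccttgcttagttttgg

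The Plk2 window held the full cyclic AMP response element (CRE) TGACGTCA, from 62 to 55 bases before the start. That octamer was present on either strand in 1.55% of the 32851 RefSeq windows of the same length. The Plk3 window held 2 copies of the CRE core TGACG, which begin 132 and 63 bases before the start; 17.8% of all windows held this core, and the full element contains it on both strands. The Pim3 window held 2 matches to the EGR motif GCGNGGGCG, both on the opposite strand, a motif found in 4.70% of windows. The Sgk1 window belongs to one of its 6 listed start sites and held the palindromic glucocorticoid element (capitals), overlapping on both strands from 189 to 175 bases before the start, which was present in 10 of the 32851 windows (0.0304%). Another Sgk1 start had a CRE core, and another had the STAT motif TTCNNNGAA, which 7.02% of windows held. Pim1, Pim2 and Trib2 had no match in these windows to any of the motifs searched, which also included the AP-1 site TGANTCA (6.75% of windows), the ETS site CCGGAAGT (2.88%), TGATGNAAT of C/EBP-ATF dimers (0.816%) and the CArG box (1.47%). The Plk2 and Pim3 windows were 68.4% and 68% GC, against a median of 52.4% over all windows. Motif shares among windows of like GC content were not computed. Matches are a description of the letters, and no binding was measured.

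In the GnRH array 7 of the 8 genes lay above 0, and the 2 past 1.5-fold were Trib1 and Plk2. Of all 21219 measured genes, 1.19% were at least 1.5-fold higher. None of the 8 was at least 2-fold higher, against 0.311% of all genes, and none was at least 1.5-fold lower, against 0.881%, or 2-fold lower, against 0.132%. Of all genes, 47.5% lay above 0. The median log2 difference (GnRH minus vehicle, after scaling) of the 8 genes was 0.35, and that of all measured genes was -0.01. Plk3 and Pim3 stood at 0.46 and 0.45, Pim1, Sgk1 and Trib2 between 0.19 and 0.25, and Pim2 at -0.13. Signals below are before scaling, vehicle first, and errors are those of the scanner software for both arrays combined; they are technical, mostly a fixed multiplicative term, and do not include variation between cultures.

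**Figure D1:**
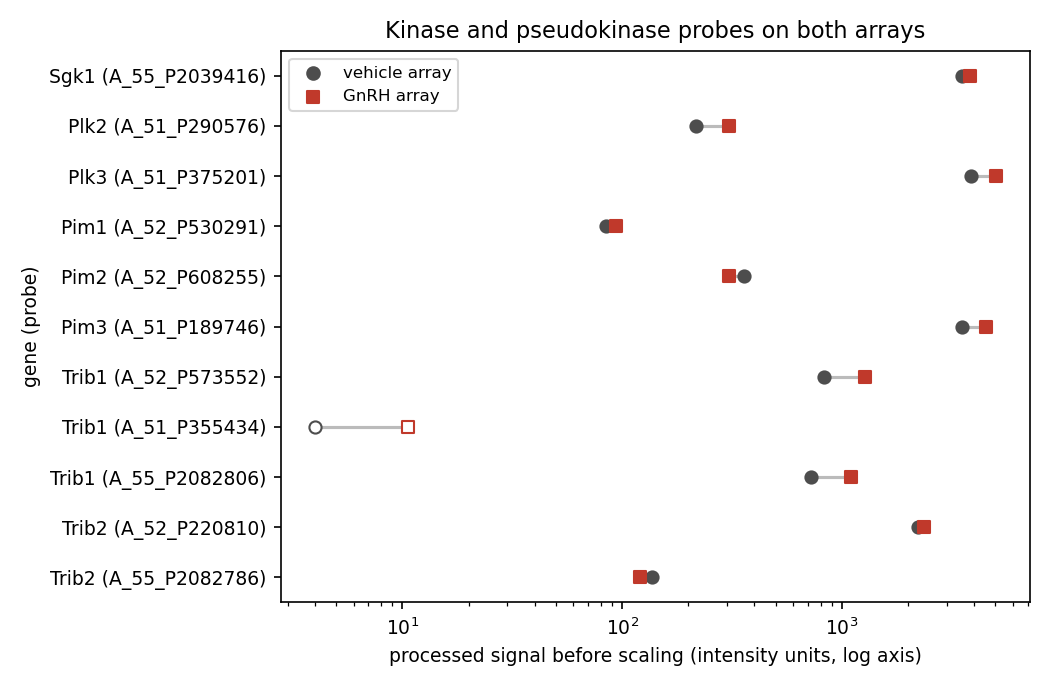
Processed signal of the 11 probes on the vehicle array (grey circles) and the GnRH array (red squares), on a log axis, before the arrays were scaled to each other; open symbols mark the Trib1 probe that failed the background mark on both arrays. The GnRH symbol lies to the right of the vehicle symbol for every probe except that of Pim2 and the dimmer measured probe of Trib2.

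Trib1, a scaffold that directs COP1 to C/EBP proteins, differed most. Its brightest probe read 833 without and 1274 with GnRH, which is 1.63-fold higher with GnRH after scaling (log2 difference 0.71 ± 0.20). A separate probe of the same transcript read 722 and 1103, 1.63-fold higher as well (0.71 ± 0.20). The measured probes of Trib1 thus differed from each other by 0.003 on the log2 scale, where the 2 probes of a gene with 2 measured probes typically differed by 0.10. They lie next to each other on chromosome 15, at 59487662 to 59487721 and 59487475 to 59487534 (build mm9, as the files give it). A further probe, at 59485136 to 59485195, carries an Ensembl transcript name and read 4.0 and 10.6, not well above background on either array, so no fold is given for it. Only 147 of the 21219 measured genes (0.693%) had a difference as high as that of Trib1.

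Trib2, the paralogue with a similar COP1-binding tail, read 2219 without and 2363 with GnRH on its brightest probe (chromosome 12, 15799009 to 15799068), a log2 difference of 0.19 ± 0.20. Its other measured probe (15822772 to 15822831) read 137 and 121 and gave -0.09 ± 0.21. The probes disagree in sign, each lies within its own scanner error of 0, and the range between them was 0.27, so these arrays give Trib2 no settled direction. Whether Trib1 and Trib2 differ from each other in response was not tested.

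Plk2, the synaptic polo-like kinase gene whose promoter window holds the full CRE, read 217 without and 305 with GnRH (chromosome 13, 111190915 to 111190974). It was 1.5-fold higher (0.59 ± 0.21), just past the counting limit. It fell short of that limit with the arrays scaled by their medians (0.56), with normexp background correction (0.44) and with no background correction (0.48). Plk3, which acts in stress and DNA damage responses, read 3881 and 5011 (chromosome 4, 116801317 to 116801376), a 1.38-fold difference (0.46 ± 0.20). Each gene was measured by a single spot, and both differences were over 2 times their scanner error (2.84 for Plk2 and 2.27 for Plk3).

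The PIM genes, whose kinases promote survival and cap-dependent translation, lay on both sides of 0. Pim3 read 3518 without and 4510 with GnRH (chromosome 15, 88695626 to 88695685), 1.37-fold higher (0.45 ± 0.20). Pim1, the founding member and a STAT target, was dim, with signals of 84.1 and 93.7 (chromosome 17, 29630740 to 29630799), with a difference of 0.25 ± 0.22. Pim2 read 357 and 305 (chromosome X, 7459678 to 7459737) and was the only gene of the 8 below 0, at -0.13 ± 0.21, which is within its scanner error.

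Sgk1, which phosphorylates NEDD4L and FOXO proteins and is named for its induction by serum and glucocorticoids, read 3523 without and 3815 with GnRH (chromosome 10, 21719507 to 21719566). Its difference was 0.21 ± 0.20, or 1.16-fold. Of all measured genes, 8.53% were at least as high.

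**Figure D2:**
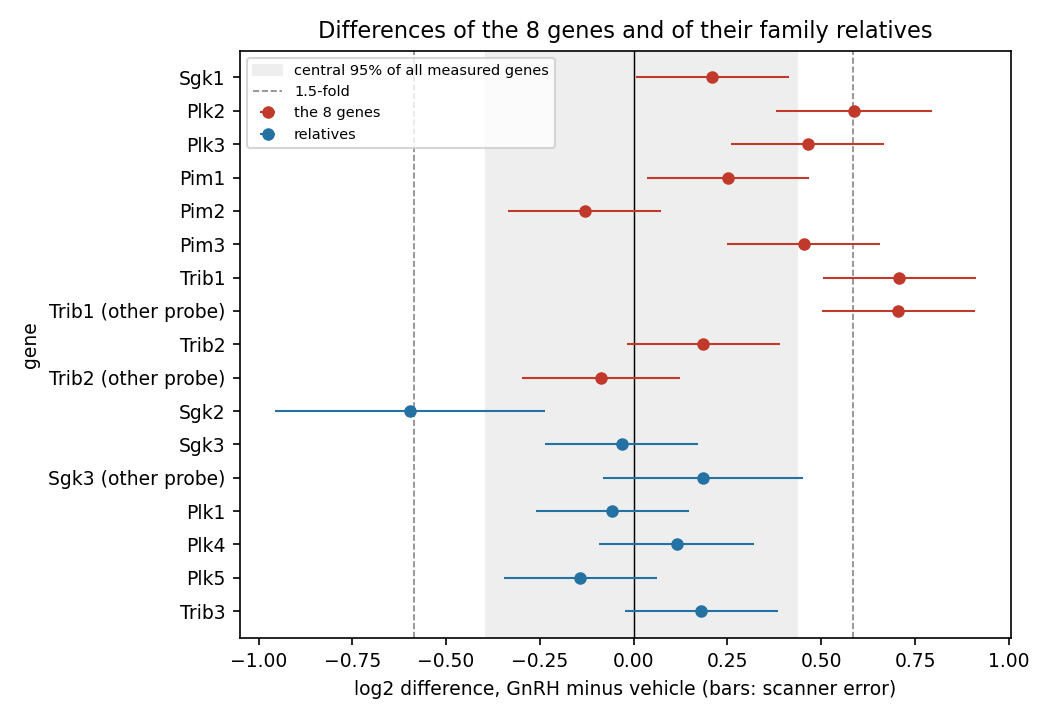
Log2 difference, GnRH minus vehicle, of each measured probe of the 8 genes (red) and of their 6 family relatives (blue), with bars for the scanner error, the shaded central 95% of all measured genes (-0.39 to 0.43) and dashed lines at 1.5-fold. Trib1 with both measured probes, Plk2, Plk3 and Pim3 lie to the right of the shaded range, and every probe of the relatives except that of Sgk2, which is to its left, lies inside it.

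The spread of differences over all genes depends on signal, so each gene was also placed in 1 of 4 equal classes of mean signal. The central 95% of differences ran from -0.62 to 0.63 in the dimmest class, which holds Pim1, from -0.31 to 0.33 in the lower-middle class, which holds Plk2 and Pim2, from -0.18 to 0.22 in the upper-middle class, which holds Sgk1, Pim3, Trib1 and Trib2, and from -0.14 to 0.18 in the brightest class, which holds Plk3. Of the 8 genes, 4 lay above the upper end for their class, and the other 4 lay inside the range. Those above were Trib1 (0.471% of its class at least as high), Plk2 (0.735%), Plk3 (0.434%) and Pim3 (0.792%). The same 4 genes lay above the upper end for all genes together, which 2.5% of genes pass. Sgk1 was close to the limit of its class, with 2.77% of genes at least as high, followed by Trib2 with 3.75%, while Pim1 had 19.1% and Pim2 82.8%. No spot of the 8 genes lay in the 3 small areas of the array where neighbouring spots of unrelated genes differ together; the median difference of the neighbours of a measured spot ran from -0.15 (Pim3) to 0.10 (Trib2).

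The 6 family relatives, of which Trib3 is also known as a stress-inducible gene, were all measured and had a median of -0.04, with none at least 1.5-fold higher. The mitotic kinase gene Plk1 read 37355 and 33615 and differed by -0.06 ± 0.20, and Plk4, which drives centriole duplication, by 0.11 ± 0.21. Plk5, a neuronal paralogue, differed by -0.14 ± 0.20. Sgk3 gave -0.03 ± 0.20 on its brighter probe and 0.18 ± 0.27 on the other. Sgk2 was at -0.60 ± 0.36, or 1.51-fold lower, at signals of only 29.7 and 18.4; with no background correction it was at -0.06 and with normexp at -0.13. Trib3, a target of the stress factor ATF4, differed by 0.18 ± 0.20. Within each family the genes above the central range were therefore Trib1 of 3 Tribbles genes, Plk2 and Plk3 of 5 polo-like genes, Pim3 of 3 PIM genes and none of 3 SGK genes; differences between relatives were not tested.

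**Figure D3:**
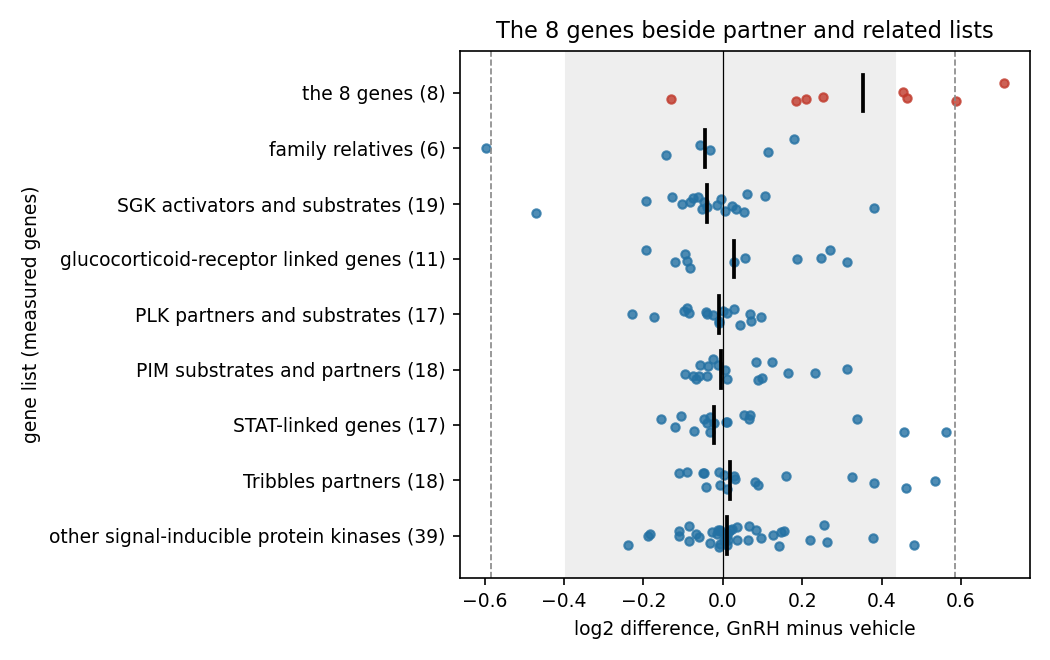
Log2 difference, GnRH minus vehicle, of each measured gene (points) in the 8 genes, their family relatives and 7 lists of partners, regulators and other kinases, with list medians as black bars, the central 95% of all genes shaded and dashed lines at 1.5-fold. The median of the 8 genes is 0.35, and the other medians lie between -0.04 and 0.03.

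The lists of genes that act with these kinases had medians near 0, against 0.35 for the 8 genes. Some of their single genes, given below, differed by more than 0.35. So did Socs3 (0.46 ± 0.20) of the STAT-linked genes and Atf4 (0.46 ± 0.20) of the Tribbles partners, both named after their values were seen. The activators and substrates of SGK had a median of -0.04 over 19 measured genes with none past 1.5-fold in either direction, from Tsc2 (-0.47 ± 0.21) to the transcription factor gene Foxo3 (0.38 ± 0.21). Genes linked to the glucocorticoid receptor had a median of 0.03 over 11 and none past 1.5-fold, from Tsc22d3 (-0.19 ± 0.20), a classical glucocorticoid target, to the clock gene Per1 (0.31 ± 0.20). The metallothionein gene Mt1 of that list, named after its values were seen, was at 0.25 ± 0.20 on its brightest probe and at 1.26 on another, and counts as past 1.5-fold with the mean over probes. Partners and substrates of polo-like kinases had a median of -0.01 over 17 genes, from the checkpoint kinase gene Chek2 (-0.23 ± 0.20) to Top2a (0.10 ± 0.20), and those of PIM kinases had 0.00 over 18, from Nfatc1 (-0.09 ± 0.21) to the p53 ligase gene Mdm2 (0.31 ± 0.20). The spot of Top2a lay in one of the areas. None of either list passed 1.5-fold.

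STAT-linked genes, which include regulators of Pim transcription, had a median of -0.02 over 17 genes and none past 1.5-fold. Their highest was Cish, a cytokine signalling inhibitor that is itself a STAT5 target, with signals of 282 (vehicle) and 390 (GnRH) and a difference of 0.56 ± 0.21. Their lowest was the survival gene Mcl1 at -0.16 ± 0.20, whose other probe gave 0.20. Tribbles partners had a median of 0.02 over 18, from Det1 (-0.11 ± 0.20), which works with COP1, to the stress factor gene Ddit3 (0.53 ± 0.20). The C/EBP gene Cebpb (0.33 ± 0.20) and the ligase gene Cop1 (-0.04 ± 0.20), both named after their values were seen, encode known partners of Tribbles proteins. Other signal-inducible protein kinases had a median of 0.01 over 39 genes and none past 1.5-fold. Sik1, a CREB-induced kinase, was highest at 182 and 238 (0.48 ± 0.21), and Mylk lowest at -0.24 ± 0.23.

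Among the genes whose difference was nearest to that of Trib1 over the 2 arrays were the AP-1 gene Fosl2 (0.71) and Rasd1 (0.70), a Ras-like gene; with 2 arrays this likeness is a match of 1 number. For scale, Fos read 114 without and 6725 with GnRH (5.98 ± 0.07). The receptor gene Gnrhr read 14861 and 13655 on its brighter probe (-0.03 ± 0.20).

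**Figure D4:**
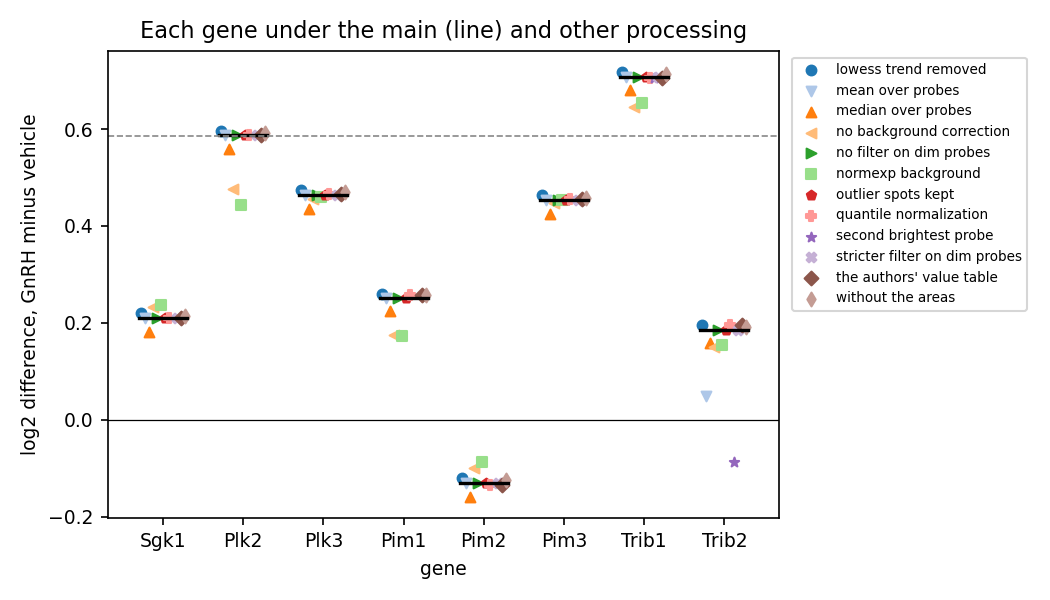
Log2 difference, GnRH minus vehicle, of the 8 genes under the main processing (black line) and under up to 12 alternatives (symbols), with the dashed line at 1.5-fold. Trib1 stays above the dashed line under every one, Plk2 falls below it under 3, and only Trib2 has values on both sides of 0.

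Of the defining transcripts of the labelled cell, neither Gnrh1 probe passed the background mark on any array (7.94 and 10.3 on the first, 6.23 and 8.60 on the second), while the gonadotrope gene Cga read 80508 and 69481 on its brightest probe (-0.12 ± 0.20) and 196 and 246 on another (0.42 ± 0.21). Of the other gonadotrope genes, Nr5a1 read 33412 and 28614, Pitx1 48204 and 44001, and Foxl2 26688 and 25329, while Lhb was dim at 71.5 and 72.1 and Fshb was not measured. Of the GnRH neuron list, Six6, Meis1 and Nhlh2 were not measured either, and Otx2 (80.2 and 49.9) and Dlx5 (21.7 and 31.3) were dim; its genes shared by neurons and endocrine cells, such as Snap25 (4514 and 4112) and Tubb3 (22842 and 23528), were measured. Of the listed markers on the array, 8 of 15 were measured for gonadotropes and the pituitary and 7 of 11 for GnRH neurons. Measured too were 4 of 8 for astrocytes, 7 of 9 for oligodendrocytes, 5 of 9 for microglia and macrophages and 4 of 11 for fibroblasts and endothelium. Over the whole array 21219 of 35019 genes were measured, so these counts do not single out a cell type. The medians of these marker lists lay between -0.04 and 0.04, and the only members past 1.5-fold were Dlx5 (0.62 ± 0.37) and Otx2 (-0.59 ± 0.23) of the GnRH neuron list; with no background correction they were at 0.22 and -0.23, short of that limit. In bulk RNA, fewer cells of a type and less RNA per cell cannot be told apart. Of the non-control spots, 55.2% (vehicle) and 56.9% (GnRH) passed the mark for well above background, and 0 were saturated.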

How the data were processed

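Per the file headers, the authors' scanner software (Feature Extraction) wrote linear spot intensity values with background subtracted and a detrending step within each array. The headers give 10.7.1.1 as the version of its grid placement, and the submitters' processing notes give version 9.5.1.1. The authors' deposited value table, also linear intensity, has 1 value per probe and served as an alternative. Its scale and direction follow from the scanner values (r = 0.998 for differences over 29665 probes). How it was normalized is not stated in the sources used here, but its median was 28.44 on both arrays. Its differences were nearly those of the scanner values after quantile normalization, another alternative (Trib1 0.7062 and 0.7063, Sgk1 0.2108 under both). The table thus behaved as quantile-normalized values.

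After removal of control and outlier spots, log2 processed signals were averaged per probe, and each array's 75th percentile over probes was subtracted. A probe was measured when at least 50% of its kept spots were well above background on both arrays. A gene took its brightest measured probe. Probes were named through accessions in a RefSeq table (27235 of 55681) or kept the file's name. Areas were found as connected spots (at least 4) whose neighbours within 2 rows and columns had a median log2 difference of 0.3 or more in size, widened by 2 spots (586 non-control spots).

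With 1 array per group no test was run; genes were counted at 1.5-fold and 2-fold. The members, lists and alternatives were chosen with earlier results of these data known. The rule for named genes took the 8 genes, up to 3 genes past 1.5-fold of each list (otherwise its highest and lowest), the 3 genes nearest to Trib1 by difference, and Gnrh1, Gnrhr, Fos and Cga. A gene that this rule takes is not reported here. Motifs were searched on both strands. The step from scaled probe values to gene differences was tested on simulated data. Fold counts, scaling, background correction, the filter, the area search and the motif search were not. Tools were Python 3.11.15, pandas 2.3.3, statsmodels 0.14.6 (lowess, fraction 0.3) and limma 3.58.1 (normexp, offset 50).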

Additional observations from a re-analysis of the deposited data

How the results depend on the processing

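The alternatives changed the scaling, the background correction, the source of values, the rule for several probes, the filter on dim probes, the outlier spots and the areas. The count of 2 genes at least 1.5-fold higher became 1 with scaling by the median, 1 with normexp, 1 with no background correction and 1 with the second brightest probe, which only Trib1 and Trib2 have; it was 2 under the other alternatives. The counts of 0 for 2-fold higher and 0 for 1.5-fold lower held under all 12. Among the 12, the authors' value table and quantile normalization gave nearly the same values, so they are not separate checks. Under each of them 1.09% of all genes were at least 1.5-fold higher. The median of the 8 genes ran from 0.31 with the second brightest probe to 0.45 with the stricter filter, which leaves out Pim1. Of 89 values of single genes, 1 moved by more than the scanner error: Trib2, from 0.19 to -0.09 with its other probe, and to 0.05 with the mean over probes. Many of the 89 could not move: a gene with 1 measured probe keeps its value under the mean over probes and under both filter changes. The share of all genes at least 1.5-fold higher, 1.19%, was 0.405% with normexp, 0.415% with no background correction, 0.459% with the stricter filter and 7.56% with no filter. Signal over background limits the dim genes. The 262 probes printed 10 times were ordered by their own mean signal, apart from the classes of all genes above. Single spots varied by 0.19 (SD of a log2 difference) in their dimmest 66, with signals of 25.4 to 281, and by 0.04 in their brightest 66. By mean signal of both arrays, Plk2 as well as Pim1 falls in the range of the dimmest 66. No paired analysis was possible because each group has 1 array.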
